A study of Mus musculus with 4 samples.

Results

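F-box proteins are the substrate-choosing subunits of SCF ubiquitin ligases, and the abundance of their transcripts was compared between CUGBP1 immunoprecipitates and control IgG immunoprecipitates of mouse myoblasts. The transcripts were chosen by gene symbol. They comprise every probe set assigned to a single gene named *Fbxl*, *Fbxo* or *Fbxw* with a number, leaving out *Fbxo5*, together with *Skp1a* (called *Skp1* in the array annotation), *Cul1*, *Rbx1*, *Skp2* and *Btrc*. This gave 77 probe sets of 74 genes among 21044 probe sets that name 1 gene (19452 genes). Of the 77, 18 belong to *Fbxl* genes, 36 to *Fbxo* genes, 17 to *Fbxw* genes and 6 to the genes listed by name. *Fbxl7*, *Fbxo31* and *Rbx1* had 2 probe sets each and every other gene had 1.

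All samples were proliferating C2C12 (LKO1) cells, a mouse myoblast line carrying an empty lentiviral vector under puromycin selection and harvested below 70% confluency. The line was not depleted of CUGBP1 in either group. RNA was recovered from cytoplasmic lysate with the monoclonal antibody 3B1 against CUGBP1 (CUGBP1 IP) or with normal IgG (control IgG), and each of the 4 RNA samples, 2 per group, was run on its own Affymetrix Mouse Gene 1.0 ST array. Arrays of input RNA were not analysed here, so that more of a transcript in the lysate and a larger bound share of it cannot be told apart.

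In an SCF ligase the cullin CUL1 is a scaffold that holds the RING protein RBX1, which brings in the charged ubiquitin-conjugating enzyme, at one end and the adaptor SKP1 at the other. SKP1 binds the F-box of an interchangeable F-box protein, whose remaining sequence picks the target. FBXL proteins carry leucine-rich repeats, FBXW proteins carry WD repeats and FBXO proteins carry other or no recognised domains. In muscle, F-box proteins are known for targeting myogenic regulators, cell-cycle proteins and, during atrophy, translation factors and sarcomere proteins. CUGBP1, encoded by *Celf1*, binds GU-rich RNA and recruits deadenylases to it.

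Values are linear intensities that the authors divided by the 5th percentile of the same array, so a probe set without transcript reads near 1 and ratios of dim probe sets are pressed towards 1. Olfactory and vomeronasal receptors, assumed to be silent in myoblasts, served as the measure of background through their 1198 probe sets, and a value was taken as background unless it exceeded the 95th percentile of those probe sets on the same array (1.23 and 1.29 in CUGBP1 IP, 1.09 and 1.16 in control IgG). The control IgG arrays were not alike, with 39.6% of probe sets above background on replicate 1 and 57.2% on replicate 2, against 58.3% and 63.0% on the CUGBP1 IP arrays. The myoblast markers *Myod1*, *Myf5*, *Cdh15*, *Des*, *Vim* and *Itga7* were all above background on both CUGBP1 IP arrays. Their summed level of 112 and 154 against 40.8 and 112 in control IgG was carried mostly by *Vim* (77.89 and 114.15 against 32.14 and 98.05). Of the differentiated muscle markers, *Myh1* and *Myh4* were at background on all 4 arrays, *Ckm*, *Tnnt3* and *Mb* were above it on 3, and *Acta1* was above it on all 4 (2.99 and 2.81 against 1.31 and 1.95). The 3 endothelial markers, *Ptprc*, *Itgam*, *Epcam* and *Alb* were at background throughout, while *Cd3e* was above it on 1 array, *Cdh1* on 2 and *Krt8* on 4.

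The ratio given below, the signal-to-negative ratio, divides the mean CUGBP1 IP value by the mean control IgG value. Higher and lower calls are those of limma on log2 values with Benjamini-Hochberg adjustment over all 21044 probe sets, at an adjusted p under 0.05, and standard errors (SE) are from that fit. In this fit SE and p-values rest on a variance that an intensity trend pooled over all probe sets. They do not measure the replicate spread of the single transcript. *Fbxw15*, with the same value on every array, still had an SE of 0.042. Nothing in the sources says that replicates came from separate cultures, so the pooled spread between these samples may be technical. The log2 difference of the median probe set was 0.29 on this scale, 0.00 with arrays scaled to their medians and -0.02 after quantile normalization. Ratios, directions and calls below are relative to no difference between the groups, so on this scale they do not discount the shift of the median probe set.

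F-box and SCF core transcripts spanned ratios from 0.890 to 6.17, with a median of 1.38 against 1.22 over all probe sets. The ratio was over 1 for 71 of the 77 (92.2%, against 93.3% of all) and over 2 for 14 (18.2%, against 10.4%). The limma fit called 5 of the 77 probe sets higher in CUGBP1 IP (6.49%, where 1.95% of all probe sets were called higher), those of *Fbxl7*, *Fbxl20*, *Fbxo28*, *Fbxw9* and *Fbxo33*. It called 1 lower (0.138% of all), that of *Fbxw24*, whose values were all within background. The top 5% of the ratio, which began at 2.57, held 4 of the 77 (5.19%, against 5.0% by construction), those of *Fbxl14*, *Fbxl7*, *Fbxw11* and *Fbxl20*. Both CUGBP1 IP values lay above both control IgG values for 65 of the 77 (84.4%, against 66.3% of all), both lay below for 3 (0.95% of all), and the groups overlapped for 9. Without the intensity trend in limma's variance model, with receptor background subtracted or with any 1 array left out, limma called 0 of the 77 and 0 of all 21044 probe sets. An unadjusted p under 0.05 was found for 37 of the 77 in the main fit (48.1%, against 29.1% of all), 28 without the trend (36.4%, against 22.6%), 28 after subtraction (36.4%, against 20.9%) and 9 to 36 with an array left out (11.7% to 46.8%, against 5.05% to 28.9%).

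**Figure D1:**
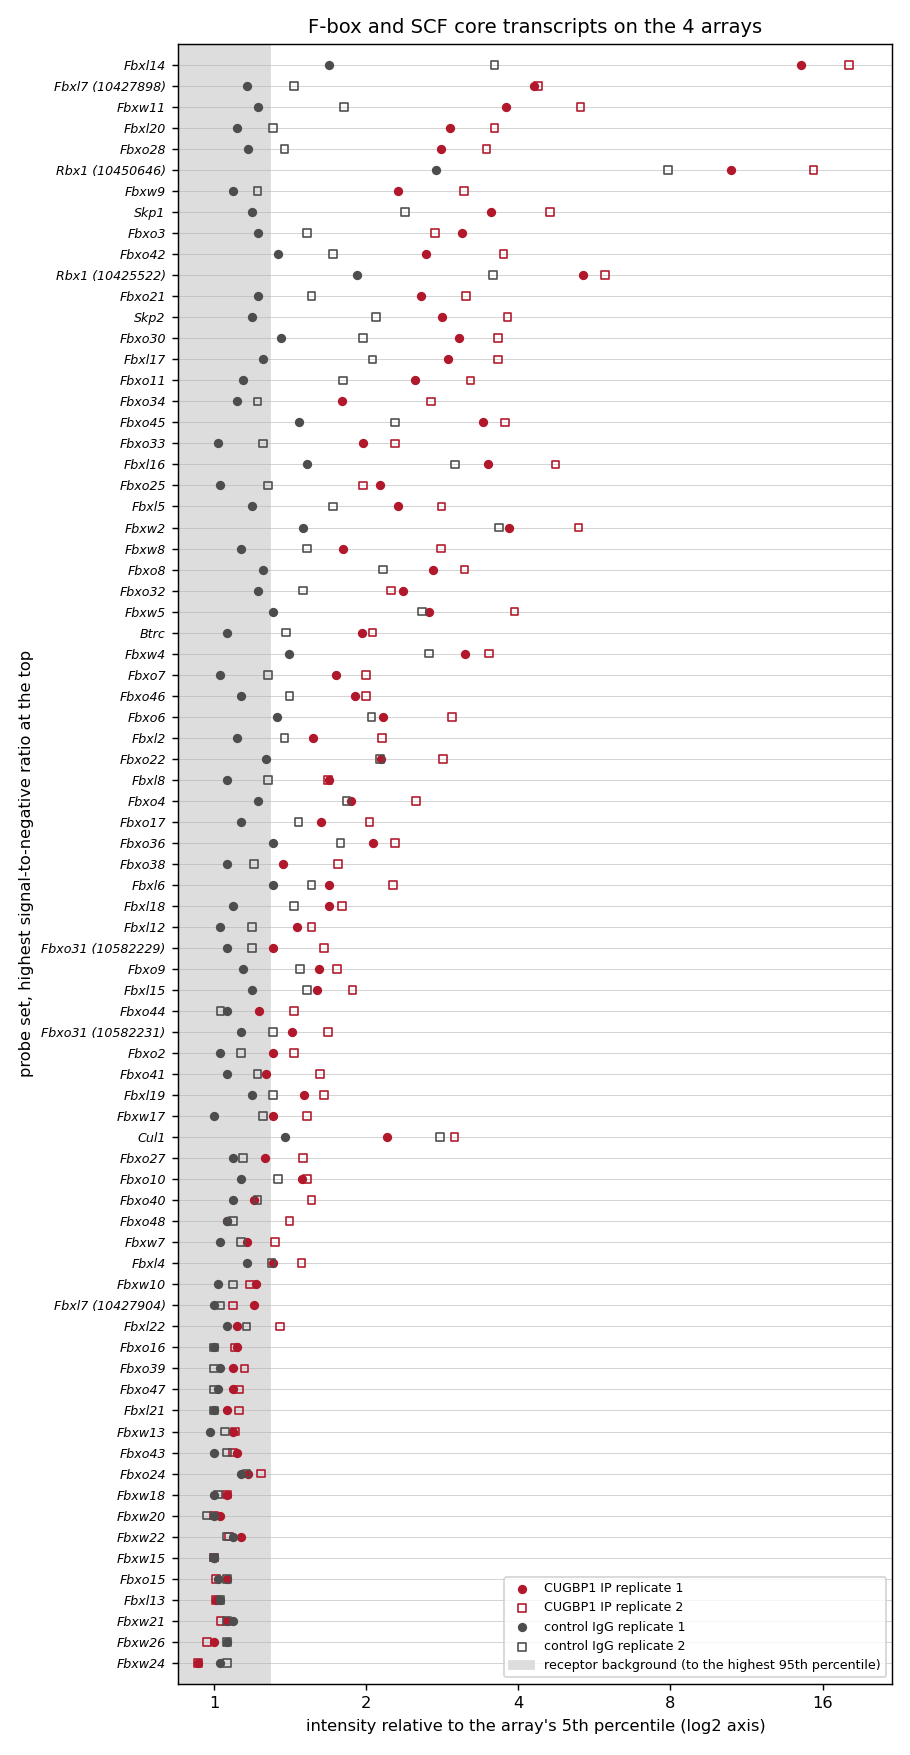
Intensity relative to the 5th percentile of the array (log2 axis) for each of the 77 probe sets on the 4 arrays, with CUGBP1 IP in red and control IgG in grey. The shaded span ends at 1.29, the highest of the 4 background cutoffs. Points in the span can still be above the cutoff of their own array, which was 1.09 or 1.16 for control IgG. Red and grey separate for most of the upper rows, and 17 probe sets, most of them near the bottom, stay within background on all 4 arrays.

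The core subunits had ratios from 1.24 to 2.43 with control values that differed widely between arrays, and none was called. *Skp1*, the adaptor between CUL1 and the F-box protein, read 3.54 and 4.62 in CUGBP1 IP and 1.19 and 2.39 in control IgG. The groups did not overlap, with a ratio of 2.28 and a log2 difference of 1.26 (SE 0.54, adjusted p = 0.134). The log2 difference of *Skp1* was 0.34 after quantile normalization. *Cul1*, the scaffold, read 2.20 and 2.99 in CUGBP1 IP and 1.38 and 2.80 in control IgG. Here the groups overlapped, and the ratio of 1.24 became 0.927 against control IgG replicate 2 alone, while the log2 difference of 0.38 (SE 0.45, adjusted p = 0.478) turned to -0.55 after quantile normalization.

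*Rbx1*, the RING subunit, was represented by 2 probe sets. Probe set 10425522 read 5.37 and 5.94 in CUGBP1 IP and 1.92 and 3.56 in control IgG, a ratio of 2.06. Probe set 10450646 read 10.54 and 15.35 against 2.75 and 7.91, a ratio of 2.43, and was the brightest of the 77 in control IgG. Groups did not overlap for either, the adjusted p-values were 0.270 and 0.327, and the log2 differences of 1.11 and 1.45 turned to -0.26 and -0.22 after quantile normalization. The flanking probe sets by number name *Xpnpep3* and *Ep300* for 10425522, which are neighbours of *Rbx1* in the RefSeq gene table. For 10450646 they name *Mrps18b* and *Abcf1*, which lie beside *Rbx1-ps*, a processed copy of *Rbx1*, so that probe set may read the copy and gene and copy cannot be told apart.

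*Skp2*, *Btrc* and *Fbxw11* encode F-box proteins of cell-cycle and signalling control. *Skp2*, whose product marks the CDK inhibitor p27 for degradation, read 2.83 and 3.81 in CUGBP1 IP and 1.19 and 2.09 in control IgG. The groups did not overlap, with a ratio of 2.02 and a log2 difference of 1.06 (SE 0.46, adjusted p = 0.138). The log2 difference of *Skp2* was 0.21 after quantile normalization. The paralogs *Btrc* and *Fbxw11* encode the β-TrCP proteins, which recognise phosphorylated β-catenin and IκBα. *Fbxw11* read 3.79 and 5.31 in CUGBP1 IP and 1.22 and 1.81 in control IgG, a ratio of 3.00 and a log2 difference of 1.59 (SE 0.54, adjusted p = 0.0727). *Btrc* read 1.96 and 2.06 against 1.06 and 1.39, a ratio of 1.64 and a log2 difference of 0.73 (SE 0.28, adjusted p = 0.103). Neither paralog's groups overlapped, and both missed the threshold in the main fit. Both were called with arrays scaled to their medians (adjusted p = 0.0146 for *Fbxw11* and 0.0414 for *Btrc*), where 6.47% of all probe sets were called higher. Neither was called after quantile normalization, with log2 differences of 0.61 and 0.29 (adjusted p = 0.0932 and 0.388).

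**Figure D2:**
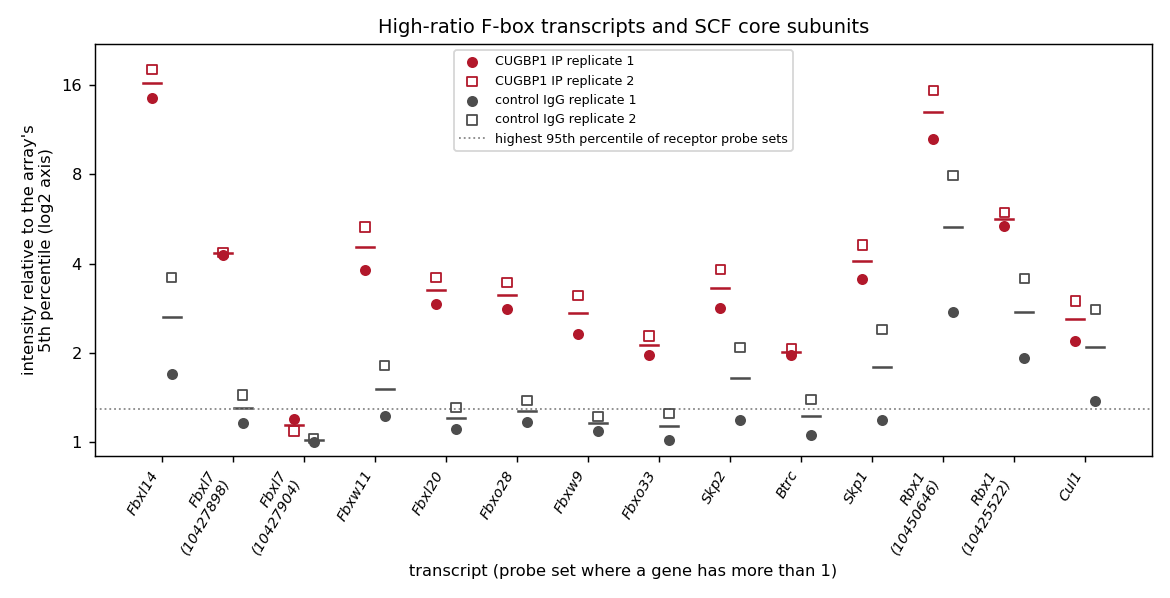
Intensity relative to the 5th percentile of the array (log2 axis) for the called or top-ranked F-box transcripts and the named SCF genes, with points for single arrays and bars for the mean of 2 arrays per group. *Fbxl14* has the largest gap between groups and *Cul1* is the one gene shown whose groups overlap.

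*Fbxl14* had the highest ratio of all 77 without being called. Its product is the mammalian counterpart of Drosophila Partner of paired and targets the transcription factor Snail. It read 14.51 and 18.06 in CUGBP1 IP and 1.69 and 3.59 in control IgG. The groups were far apart and the ratio of 6.17 stood at the 99.2nd percentile of all probe sets, but the log2 difference of 2.72 had an SE of 1.09 and an adjusted p of 0.117. After quantile normalization *Fbxl14* was called with a smaller log2 difference of 1.21 (adjusted p = 0.0225), but with arrays scaled to their medians it was not (adjusted p = 0.133).

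*Fbxl7*, which encodes an F-box protein known to act on Aurora A and survivin, rose in CUGBP1 IP at probe set 10427898. The values were 4.29 and 4.37 against 1.16 and 1.44, so that the 4 arrays were above background and the groups did not overlap. The ratio was 3.33 and the log2 difference 1.74 (SE 0.48, adjusted p = 0.0314). Its other probe set, 10427904, read 1.20 and 1.09 against 1.00 and 1.03, all within background, with a log2 difference of 0.17 that turned to -0.12 with arrays scaled to their medians. It gives no measured level to set beside that of 10427898.

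*Fbxl20*, whose product is known at synapses as Scrapper, read 2.93 and 3.59 in CUGBP1 IP and 1.11 and 1.31 in control IgG. All 4 values were above background and the groups did not overlap. Its ratio was 2.69 and its log2 difference 1.43 (SE 0.39, adjusted p = 0.0281). *Fbxl7* and *Fbxl20* were the 2 members called when the fit was limited to probe sets above background on all 4 arrays.

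*Fbxo28*, whose product ubiquitylates MYC, read 2.81 and 3.46 in CUGBP1 IP and 1.17 and 1.38 in control IgG. It rose with a ratio of 2.46 and a log2 difference of 1.30 (SE 0.39, adjusted p = 0.0475), close to the threshold. *Fbxw9* read 2.31 and 3.12 against 1.09 and 1.22, with control IgG replicate 1 in background. It rose with a ratio of 2.35 and a log2 difference of 1.22 (SE 0.33, adjusted p = 0.0277). *Fbxo33*, whose product targets the Y-box protein YB-1, read 1.97 and 2.28 against 1.02 and 1.25, again with control IgG replicate 1 in background. It rose with a ratio of 1.87 and a log2 difference of 0.91 (SE 0.27, adjusted p = 0.0467). After quantile normalization *Fbxo28* and *Fbxo33* lost the call (adjusted p = 0.135 and 0.0866). *Fbxl7*, *Fbxl20* and *Fbxw9* were still called, with smaller log2 differences of 0.88, 0.74 and 0.63.

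The F-box genes known from muscle atrophy were at ratios between 1.19 and 2.06, and none was called. *Fbxo32* encodes atrogin-1, which targets MyoD and the translation factor eIF3f, and read 2.37 and 2.24 in CUGBP1 IP and 1.22 and 1.5 in control IgG. Its groups did not overlap, with a ratio of 1.69 and a log2 difference of 0.77 (SE 0.33, adjusted p = 0.135). *Fbxo30* encodes MUSA1 and read 3.06 and 3.65 against 1.36 and 1.97, a ratio of 2.02 (adjusted p = 0.150). *Fbxo21* encodes SMART, a ligase subunit induced in atrophy, and read 2.57 and 3.15 against 1.22 and 1.56, a ratio of 2.06 (adjusted p = 0.0960). The log2 differences of *Fbxo32*, *Fbxo30* and *Fbxo21* fell to 0.038, 0.031 and 0.22 after quantile normalization. *Fbxo40*, whose product targets the insulin receptor substrate IRS1 in muscle, was dimmer and its groups overlapped, at 1.20 and 1.56 against 1.09 and 1.22. Its ratio of 1.19 (adjusted p = 0.269) went with a log2 difference that turned to -0.04 with arrays scaled to their medians and -0.08 after quantile normalization.

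For *Fbxo11*, *Fbxl5* and *Fbxo45*, groups did not overlap but the test was not passed. *Fbxo11*, which targets the repressor BCL6, read 2.50 and 3.22 in CUGBP1 IP and 1.14 and 1.80 in control IgG, a ratio of 1.95 (adjusted p = 0.117). *Fbxl5*, the iron-sensing subunit that targets the iron regulatory protein IRP2, read 2.31 and 2.82 against 1.19 and 1.72, a ratio of 1.76 (adjusted p = 0.139). The log2 differences of *Fbxo11* and *Fbxl5* were 0.26 and 0.084 after quantile normalization. *Fbxo45*, whose product works with the large RING protein PHR1 in place of a usual SCF, read 3.40 and 3.76 against 1.47 and 2.28, a ratio of 1.91 (adjusted p = 0.188) whose log2 difference turned to -0.13 after quantile normalization.

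*Fbxo4* and *Fbxo31*, both linked to cyclin D1 turnover, were not called. *Fbxo4* read 1.87 and 2.51 in CUGBP1 IP and 1.22 and 1.83 in control IgG, a ratio of 1.44 (adjusted p = 0.232) whose log2 difference turned to -0.19 after quantile normalization. The 2 probe sets of *Fbxo31* had ratios of 1.32 and 1.27 (adjusted p = 0.159 and 0.233), and the log2 difference of the second, 10582231, turned to -0.08 after quantile normalization. *Fbxw7*, whose product targets cyclin E, MYC, JUN and Notch, read 1.16 and 1.32 against 1.03 and 1.13. Only CUGBP1 IP replicate 2 was above background there, so the ratio of 1.15 (adjusted p = 0.216), which turned below 1 with arrays scaled to their medians (log2 difference -0.09), describes a barely detected transcript.

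Of the other members among the 10 highest ratios, *Fbxo3*, whose product targets FBXL2, read 3.10 and 2.74 in CUGBP1 IP and 1.22 and 1.53 in control IgG. The groups did not overlap, with a ratio of 2.12 (adjusted p = 0.0878). *Fbxo42*, whose product has been linked to p53 turnover, read 2.63 and 3.74 against 1.34 and 1.72, also without overlap and with a ratio of 2.08 (adjusted p = 0.127). The log2 differences of *Fbxo3* and *Fbxo42* were 0.27 and 0.07 after quantile normalization. At the other end, the lowest ratios among probe sets above background on at least 1 array were those of *Fbxo24* at 1.05, *Fbxl22* at 1.11 and *Fbxl4*, the mitochondrial F-box gene, at 1.14, and the log2 differences of all 3 turned negative both with arrays scaled to their medians and after quantile normalization.

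By family, the median ratio was 1.38 for the 18 *Fbxl* probe sets, 1.41 for the 36 *Fbxo*, 1.13 for the 17 *Fbxw* and 2.04 for the 6 probe sets of *Skp1*, *Cul1*, *Rbx1*, *Skp2* and *Btrc*. It was 1.22 over all probe sets. Of the 6, 5 were above background on all 4 arrays, a class with a median ratio of 1.61 over all its probe sets. The *Fbxl* probe sets held 3 of the 4 in the top 5% of the ratio and 2 of the 5 called higher (16.7% and 11.1% of the 18, against 5.0% and 1.95% of all probe sets). The *Fbxo* probe sets held 2 of the calls (5.56% of the 36) and none of the top 5%. The *Fbxw* probe sets held *Fbxw9* and *Fbxw11* at one end and 9 probe sets in background on all 4 arrays at the other.

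Detection differed among the members and moved with the ratio. Of the 77, 40 were above background on all 4 arrays (51.9%, against 36.7% of all probe sets), 20 on some and 17 on none. Both CUGBP1 IP values were above background for 54 (70.1%, against 55.4%). The median ratio was 1.75 over those 40 and 1.61 over the 7727 probe sets of the whole table that were above background on all 4 arrays. Within this detected set, 4 of the 40 (10.0%) were in the top 5% of the ratio, where 12.6% of all detected probe sets were, and 13 (32.5%) had a ratio over 2, against 25.9%. Calls of higher were made for 3 of the 40 (7.50%, against 2.39%).

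**Figure D3:**
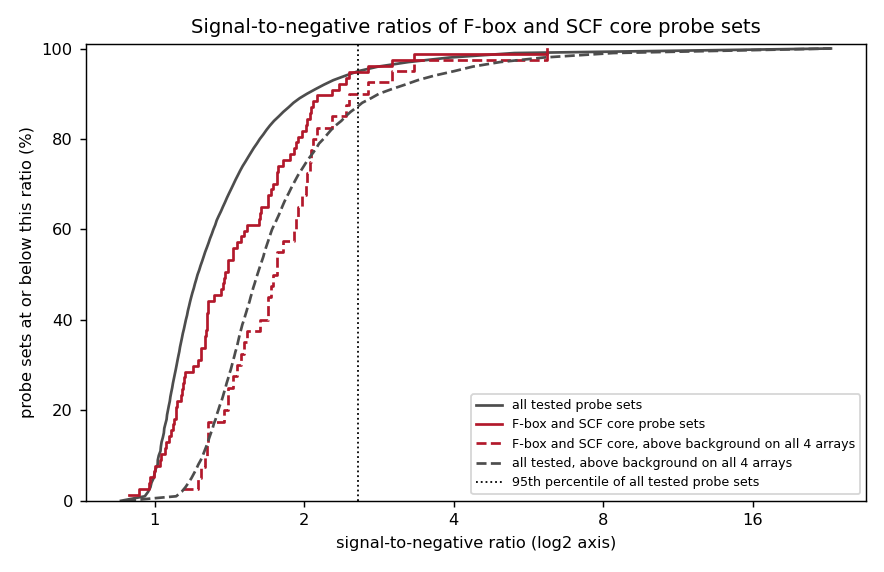
Cumulative share of probe sets (%) at or below each signal-to-negative ratio (log2 axis), for the 77 F-box and SCF core probe sets in red and all tested probe sets in grey, with dashed lines for those above background on all 4 arrays and a dotted line at 2.57. The solid red curve lies right of the grey one through the middle of the range, where the medians are 1.38 and 1.22, and both come close to 95% at the dotted line.

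The 8 members *Fbxw13*, *Fbxw15*, *Fbxw18*, *Fbxw20*, *Fbxw21*, *Fbxw22*, *Fbxw24* and *Fbxw26* come from a single run of 14 neighbouring protein-coding genes in the RefSeq gene table, all 14 of them *Fbxw* genes. All 8 were at background on all 4 arrays, with ratios from 0.890 to 1.08 and a median of 1.01. *Fbxw24* read 0.93 and 0.93 in CUGBP1 IP and 1.03 and 1.06 in control IgG, and its log2 difference fell by 0.17 (SE 0.04, adjusted p = 0.00742), a call that was lost with arrays scaled to their medians (log2 difference -0.46, adjusted p = 0.129). Of the 29 probe sets called lower in the whole table, 15 were receptor probe sets taken as background. Of the 1198 receptor probe sets, 11 were called higher (0.918%, against 1.95% of all). For 28.4% of the receptor probe sets both CUGBP1 IP values lay above both control IgG values, against 66.3% of all. As close copies, the *Fbxw* genes of this run can share hybridizing transcripts. In the whole table, 2 further probe sets that name several genes, with an F-box or SCF core gene among them, were not used.

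Ratios were generally larger against control IgG replicate 1 than against replicate 2. Against control IgG replicate 1 alone the median ratio of the 77 was 1.60, and 26 were over 2 (21.9% of all probe sets were). Against replicate 2 alone it was 1.24, and 6 were over 2 (5.8% of all). *Fbxl14* stayed highest against either array, at 9.64 and 4.54. *Fbxl7* gave 3.73 and 3.01, and *Fbxl20* gave 2.94 and 2.49, so both depended less on the control array than *Rbx1* probe set 10450646, which gave 4.71 and 1.64, or *Fbxw2*, which gave 3.03 and 1.24. For 16 of the 77 (20.8%, against 18.6% of all) the ratio to replicate 1 was over 1.5 times that to replicate 2, and 70 kept a ratio over 1 against replicate 2 alone (86.6% of all did).

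**Figure D4:**
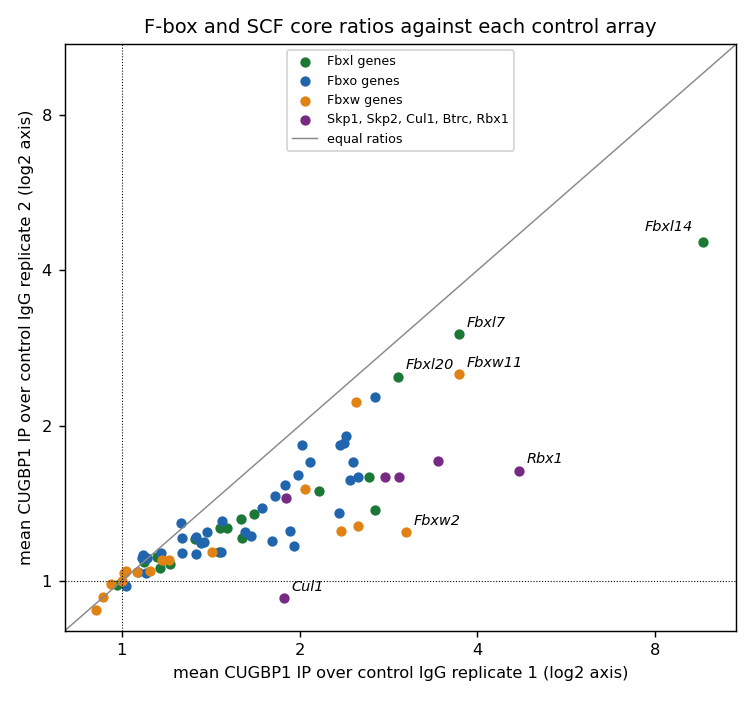
Mean of the CUGBP1 IP arrays over control IgG replicate 1 (x, log2 axis) and over control IgG replicate 2 (y, log2 axis) for the 77 probe sets, coloured by family, with a line of equal ratios. Most points lie below the line, *Fbxl14* is highest on both axes, and *Cul1* falls to 0.927 on the y axis.

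Scaling changed how many members stood above control IgG. With arrays scaled to their medians, 54 of the 77 (70.1%, against 50.1% of all probe sets) had a log2 difference over 0, both CUGBP1 IP values lay above both controls for 40 (51.9%, against 30.8%), and 12 were called higher (15.6%, against 6.47%). After quantile normalization the same counts were 44 (57.1%, against 44.9%), 28 (36.4%, against 19.4%) and 4 (5.19%, against 2.01%).

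Further genes of the pathway were taken from lists of genes that act with SCF ligases, with 1 probe set for each gene. Flanking probe sets were looked up for *Rbx1* only. Whether the probe set of another listed gene, such as *Ube2d2* or *Eif4e*, reads a copy was not tested. Over all genes, 1.94% were called higher and 4.97% were in the top 5% of the probe sets by ratio. Among the core and regulators of SCF ligases, 25 of 26 genes were measured, with a median ratio of 2.03 (1.22 over all genes), 1 called higher and 3 in the top 5%. Of the list's 25, 19 were above background on all 4 arrays. In that class the median ratio of all probe sets was 1.61 and 12.6% were in the top 5%. This list holds *Cul1*, *Skp1* and *Rbx1* (by probe set 10450646), and the median of its other 22 genes was 1.99. The gene called was *Dcun1d4*, whose product promotes attachment of NEDD8 to cullins, which read 2.64 and 3.16 in CUGBP1 IP and 1.09 and 1.13 in control IgG. Both control values were in background, so the fold was at least 2.57, with an adjusted p of 0.0170. The remaining 2 of the top 5%, *Rnf7* (the RING paralog of RBX1) and *Ube2d2* (an E2 enzyme), had ratios of 2.77 and 2.84 with adjusted p-values of 0.325 and 0.290.

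The COP9 signalosome removes NEDD8 from cullins. Its 9 genes, all above background on all 4 arrays, had a median ratio of 1.72 and none was called. In the top 5% were 2, *Cops2* at 4.37 (adjusted p = 0.153) and *Cops3* at 5.09 (adjusted p = 0.0625). Of the 24 genes of other cullins and their adaptors, 19 were above background on all 4 arrays and the median ratio was 1.62. Among the 24, *Dcaf7*, a substrate receptor of CUL4 ligases, was called and was the 1 in the top 5%. It read 7.97 and 12.29 in CUGBP1 IP and 1.28 and 1.69 in control IgG, a ratio of 6.82 (adjusted p = 0.0372). Among 7 F-box genes with another kind of symbol, which include *Skp2* and *Btrc*, none was called, and *Ccnf* (cyclin F) read 5.14 and 8.63 against 1.16 and 2.16, a ratio of 4.15 (adjusted p = 0.0646) in the top 5%. The median ratio of the 5 apart from *Skp2* and *Btrc* was 1.30.

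Transcripts of 31 proteins listed as degraded through SCF ligases had a median ratio of 1.73. The list had 1 called higher and 7 in the top 5%, where 1.94% and 4.97% of all genes were. Of the 31, 23 were above background on all 4 arrays, a class in which 12.6% of all probe sets were in the top 5% and the median ratio was 1.61. The gene called was *Rest*, a β-TrCP target, at a ratio of 1.87 (adjusted p = 0.0480). The 7 included *Myod1* at 8.29, a target of atrogin-1, and *Jun* at 7.27, a target of FBXW7. Among them, *Wee1* at 5.17 and *Nfkbia* at 4.65 are targets of β-TrCP. The others were *Ccnd1* at 6.61, whose turnover is linked above to *Fbxo4* and *Fbxo31*, *Atf4* at 4.45 and *Eif4e* at 3.80. No F-box protein is given here for *Atf4* or *Eif4e*, and the place of *Eif4e* on the list is uncertain. None of the 7 was called, with adjusted p-values from 0.0644 to 0.187. The ratios of *Atf4* and *Eif4e* were 8.86 and 6.57 against control IgG replicate 1 alone and 2.97 and 2.68 against replicate 2 alone.

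**Figure D5:**
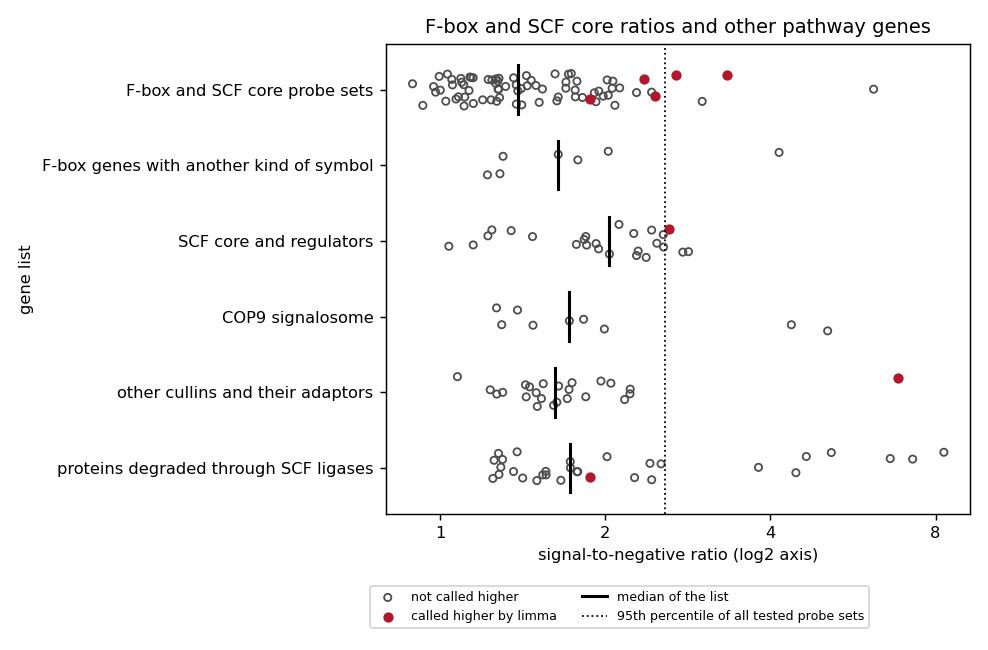
Signal-to-negative ratio (log2 axis) of each F-box or SCF core probe set and of each gene in 5 lists of related genes, with filled points for limma calls of higher, bars for medians and a dotted line at 2.57. The list of SCF core and regulators has the highest median, 2.03, and the list of degraded proteins has the most genes right of the line, 7.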

How the data were processed

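RIP-Chip values of 4 arrays were used, 2 CUGBP1 IP and 2 control IgG, grouped and numbered by their titles. The authors deposited 1 linear intensity per probe set and array, divided by the array's 5th percentile. The sources used here do not give the program that summarised probes, its background correction or the genome build. Of 25175 probe sets, the platform annotation named 1 gene for 21044, several for 1492 and none for 2639, and only the first were tested. Symbols were updated through RefSeq's gene table for the GRCm38.p6 assembly (20959 probe sets matched), which was used for names and neighbours only. Depth has no counterpart on arrays, and the number of arrays limits the precision (2 residual degrees of freedom for a single probe set). The p-values of the main fit rested on the variance that the intensity trend pooled over all probe sets, so this limit does not show in them.

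Differences between the groups in log2 intensity were tested in R 4.3.3 with limma 3.58.1 (lmFit, eBayes with an intensity trend, two-sided, Benjamini-Hochberg over all tested probe sets), a procedure tested on simulated data, where most planted changes were missed at the full spread of these arrays. Python 3.11.15 with pandas 2.3.3, numpy 2.4.6 and matplotlib 3.10.9 did the rest. Folds are given as lower bounds where both control values were in background and both CUGBP1 IP values above it. Where 1 value per gene was needed, the probe set with the highest mean stood for the gene.

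The genes, lists and tests were chosen with earlier results of these data known. Named with values were the core subunits, *Skp2*, *Btrc*, *Fbxw11*, a list of F-box genes known in muscle or for their targets, members called or in the top 5% of the ratio, and the 10 highest and 3 lowest ratios among those above background on at least 1 array. *Fbxw2* was named after its values were seen. In all, 11 alternatives were tried, covering scaling, background, offset, a filter, the variance model, left-out arrays and a replicate block.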

Additional observations from a re-analysis of the deposited data

How the results depend on the processing

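The count of 77 F-box and SCF core probe sets called higher, 5 in the main fit, became 12 with arrays scaled to their medians (6.47% of all probe sets were called), 4 after quantile normalization (3 of them among the 5, beside 2.01% of all), 7 with an offset of 1 (3.63% of all), 2 of 40 with the filter to probe sets above background on all 4 arrays (3.49% of all), and 0, as of all probe sets, with receptor background subtracted, without the intensity trend, and in each fit that left out 1 array (range 0 to 0). The count called lower, 1, became 0 with arrays scaled to their medians, with background subtracted, with the filter, without the trend, and with any array left out (range 0 to 0). The number in the top 5% of the ratio, 4, became 8 after quantile normalization, 1 of 40 with the filter, and 2 to 6 with an array left out, the 2 without control IgG replicate 2 and the 6 without control IgG replicate 1. The 65 probe sets with both CUGBP1 IP values above both controls (66.3% of all) became 40 with arrays scaled to their medians (30.8% of all). The count was 28 after quantile normalization (19.4% of all) and 39 of 40 with the filter (78% of all that passed it). The median log2 difference minus that of all probe sets, 0.18, was 0.054 after quantile normalization, 0.28 with background subtracted, 0.12 with the offset, 0.10 with the filter, and 0.13 to 0.29 with an array left out, those ends being without control IgG replicate 1 and replicate 2. The causes were not tested.

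After quantile normalization the log2 difference turned negative for *Rbx1* (-0.22 for 10450646 and -0.26 for 10425522), *Fbxo45* (-0.13), *Fbxo4* (-0.19), *Fbxo31* 10582231 (-0.083), *Cul1* (-0.55), *Fbxo40* (-0.077), *Fbxl4* (-0.24), *Fbxl22* (-0.065) and *Fbxo24* (-0.22). With arrays scaled to their medians it did so for *Fbxo40* (-0.042), *Fbxw7* (-0.091), *Fbxl4* (-0.10), *Fbxl7* 10427904 (-0.12), *Fbxl22* (-0.15) and *Fbxo24* (-0.22), and without control IgG replicate 1 for *Cul1* (-0.13, against 0.89 without control IgG replicate 2).

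With the replicate number as a block, 58 of the 77 were called higher, beside 56.1% of all probe sets. Same-numbered arrays deviated together from their group means (correlation 0.64 over probe sets), but with 2 pairs and no label that ties a number to a shared lysate, the samples share only a number.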
